A study of Mus musculus with 16 samples.

Results

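The 27 genes described here encode potassium channel subunits and the proteins that attach to them. They were selected on their measured level: the rows whose gene name begins with Kcn, without the long non-coding RNA Kcnq1ot1, were kept where a group mean reached 0.5 FPKM in at least 1 of 4 groups. FPKM is a level scaled for transcript length and library size. Of 97 Kcn rows, 27 met that level, among 24354 rows in all. The libraries are RNA-seq of quadriceps from male C57BL/6 mice, 4 months old, with 3 in each of 4 groups: HDAC3 knockout (HDAC3-KO) at rest, wild type at rest, HDAC3-KO after exercise and wild type after exercise. Exercised mice ran on a treadmill in 3 sessions of 1 h at 10 m/min, 1 h apart, and muscle was collected 2 h after the last. HDAC3 is a histone deacetylase that works within nuclear corepressor complexes. The series text calls the muscles HDAC3-depleted, and the allele and any Cre driver are not given in the sources used here. No label states that each library is a separate animal, so the tests measured the spread between these libraries, which may be technical.

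Potassium channels let potassium leave or enter the cell along its gradient. In skeletal muscle, inward rectifiers and ATP-sensitive channels help hold the resting potential, and voltage-gated channels end the action potential. Calcium-activated channels open when calcium in the cell rises. Pore subunits assemble into tetramers (tandem-pore subunits into dimers), and several families contain silent subunits that form no channel alone and change the channels they join.

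The targeted transcript separated the genotypes. Hdac3 lay between 5.51 and 8.16 FPKM in HDAC3-KO libraries and between 23.7 and 33.3 FPKM in wild-type libraries at rest. After exercise it lay between 4.13 and 6.37 FPKM in HDAC3-KO libraries and between 27.6 and 32.0 FPKM in wild-type libraries. The FPKM of a library summed to between 454359 and 522584. Read depth is unknown, so the spread between 3 libraries was the measure of error (values with ± are means and SDs, n = 3). The rest and exercise levels come in separate tables, and whether these share a normalization is not stated. Tests therefore compared genotypes within a condition, and levels set across conditions were not tested. The muscle markers Ckm, Acta1, Des, Mb, Actn2 and Myot were present in every group, with sums between 17793 and 33807 FPKM over the libraries. The tissue is bulk muscle, and fewer cells of a type cannot be told apart from less RNA per cell.

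A gene is said to have risen or fallen where limma on log2(FPKM + 1) gave an adjusted p at or under 0.05 (Benjamini-Hochberg over all genes tested), and differences and SEs are on that scale. Genes with a mean of at least 0.5 FPKM over the 6 libraries of a table were tested, which covered 21 of the 27 members at rest and 23 after exercise. At rest Kcnc4 and Kcnj2 rose and Kcnq5 and Kcng4 fell, 4 of 21 tested members, while 3.13% of 11877 genes passed (1.99% higher and 1.15% lower). After exercise Kcnq5 and Kcnf1 fell, 2 of 23 tested members, while 2.35% of 11740 genes passed (1.04% higher and 1.31% lower). The authors' deposited table called 7 of 15 members it tested at rest, 3 higher and 4 lower in HDAC3-KO, against 10.8% of all genes it tested (5.9% higher and 4.94% lower). The authors' deposited table after exercise called 7 of 15, 4 higher and 3 lower, against 9.57% (4.66% higher and 4.91% lower). The median log2 difference of the tested members was -0.14 at rest and -0.1 after exercise, beside -0.01 and 0.01 over all genes tested. The median absolute log2 difference was 0.25 at rest and 0.37 after exercise, beside 0.18 over all genes in each condition. These counts describe the members and are no test of the group, since 7 members reached 0.5 FPKM in 1 genotype only, Kcnf1 among them.

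**Figure D1:**
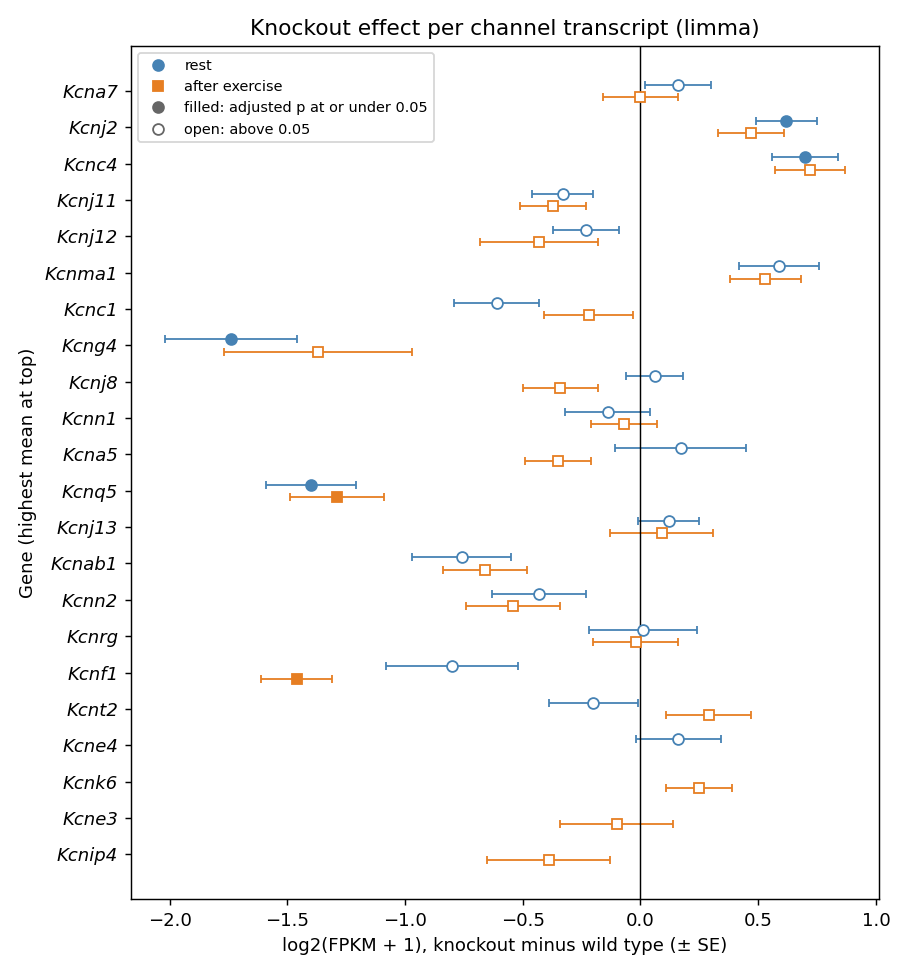
Knockout minus wild-type difference on the log2(FPKM + 1) scale for 22 of the 27 members, those tested and reported here, with the SE from limma, at rest (circles) and after exercise (squares). Filled symbols mark an adjusted p at or under 0.05. The filled symbols are Kcnj2, Kcnc4, Kcng4 and Kcnq5 at rest and Kcnq5 and Kcnf1 after exercise.

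The start regions of the 5 members that passed are shown because these transcripts differed between the genotypes in the same tissue. They come from RefSeq on assembly GRCm38.p6, run 5′ to 3′ on the gene's strand from 250 bases before the start to 50 after it, and 21 of the 27 members had an entry. For Kcnq5, which has entries for 2 starts, the one richer in CpG is printed. Capitals mark matches, on both strands, to AGGTCA, the half-site of many nuclear receptors, and to CAGCTG, a form of E-box that myogenic factors bind and that reads the same on both strands. TATAAA was also searched and matched none of the sequences printed.
Kcnq5, chr1:21961893-21962192, minus strand: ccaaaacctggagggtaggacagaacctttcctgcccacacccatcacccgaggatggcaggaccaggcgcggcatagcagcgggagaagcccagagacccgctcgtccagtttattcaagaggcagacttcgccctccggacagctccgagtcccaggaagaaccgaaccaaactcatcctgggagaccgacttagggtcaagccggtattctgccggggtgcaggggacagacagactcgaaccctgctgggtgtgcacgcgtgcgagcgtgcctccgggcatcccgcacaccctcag
Kcng4, chr8:119635631-119635930, minus strand: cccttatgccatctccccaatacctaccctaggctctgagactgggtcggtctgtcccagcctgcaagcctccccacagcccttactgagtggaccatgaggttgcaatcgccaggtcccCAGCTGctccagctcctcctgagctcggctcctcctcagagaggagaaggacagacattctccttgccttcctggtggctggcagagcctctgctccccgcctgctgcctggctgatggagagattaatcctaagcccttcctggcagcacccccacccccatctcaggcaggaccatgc
Kcnf1, chr12:17176839-17177138, minus strand: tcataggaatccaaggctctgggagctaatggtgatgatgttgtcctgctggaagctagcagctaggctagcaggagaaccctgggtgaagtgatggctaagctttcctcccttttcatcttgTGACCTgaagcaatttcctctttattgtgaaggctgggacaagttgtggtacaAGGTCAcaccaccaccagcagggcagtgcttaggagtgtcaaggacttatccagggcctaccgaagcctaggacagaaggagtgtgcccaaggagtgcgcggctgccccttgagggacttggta
Kcnc4, chr3:107458849-107459148, minus strand: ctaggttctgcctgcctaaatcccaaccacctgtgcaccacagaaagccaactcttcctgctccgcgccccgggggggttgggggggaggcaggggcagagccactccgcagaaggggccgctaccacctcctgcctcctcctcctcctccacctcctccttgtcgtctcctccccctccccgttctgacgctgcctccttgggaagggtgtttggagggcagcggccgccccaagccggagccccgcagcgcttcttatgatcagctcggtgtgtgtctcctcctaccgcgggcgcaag
Kcnj2, chr11:111065914-111066213, plus strand: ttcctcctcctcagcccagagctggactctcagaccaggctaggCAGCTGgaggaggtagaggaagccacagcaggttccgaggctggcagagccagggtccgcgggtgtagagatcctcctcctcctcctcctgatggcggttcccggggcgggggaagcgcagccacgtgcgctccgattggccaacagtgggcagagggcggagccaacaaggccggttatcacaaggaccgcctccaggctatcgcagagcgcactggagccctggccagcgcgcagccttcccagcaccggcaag

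The sequences differ in composition and motifs. Kcnf1 holds AGGTCA at 127 and 74 bases before the start, and the motif occurs in 16.3% of 32851 start regions in the RefSeq table. Kcng4 holds CAGCTG 130 bases before the start and Kcnj2 holds it 206 bases before the start, a motif also present in 16.3% of all start regions. No match overlapped another. TATAAA occurs in 13.6% of start regions. The ratio of observed to expected CpG was 0.681 for the Kcnq5 start printed and 0.189 for the other Kcnq5 start. It was 0.525 for Kcnc4 and 0.54 for Kcnj2, and it was 0.15 for Kcng4 and 0.145 for Kcnf1, beside a median of 0.384 over all start regions. These matches describe letters in these windows only.

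The channel transcripts of quadriceps were dominated by a few genes, and the order of Kcnc4 and Kcnj11 differed between the genotypes. Kcna7, a Shaker-type voltage-gated subunit of striated muscle, had the highest mean over the 12 libraries, at 51.6 FPKM. Kcnj2 followed at 41.2 FPKM, Kcnc4 at 28.7 FPKM and Kcnj11 at 24.5 FPKM. Kcnj12, Kcnma1, Kcnc1, Kcng4 and Kcnj8 lay between 9.11 and 12.4 FPKM, and the other 18 members lay at or under 4.03 FPKM. After Kcna7 and Kcnj2 in the order, the next member was Kcnc4 in each HDAC3-KO library at rest and Kcnj11 in each wild-type library at rest. The gap was small in wild-type library 3, with Kcnj11 at 29.5 FPKM and Kcnc4 at 28.2 FPKM. After exercise the leading order varied more between libraries. Kcnc4 stood above Kcna7 in HDAC3-KO library 2, and Kcnj11 stood above Kcnj2 in wild-type library 2.

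Kcna7 did not pass in either condition. It measured 63.8, 55.0 and 77.0 FPKM in HDAC3-KO libraries at rest, against 57.3, 52.0 and 64.1 FPKM in wild-type libraries at rest. After exercise it measured 51.4, 34.3 and 40.3 FPKM in HDAC3-KO libraries and 36.8, 44.3 and 43.1 FPKM in wild-type libraries. The genotypes overlapped in both conditions (limma adjusted p = 0.601 at rest and 0.993 after exercise).

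The 4 highest members of each library held a larger part of the summed channel FPKM in HDAC3-KO muscle. In every library they were Kcna7, Kcnj2, Kcnc4 and Kcnj11, so the share partly repeats the differences of Kcnj2 and Kcnc4 given below. Their share was 74.1%, 70.1% and 71.0% in HDAC3-KO libraries at rest, against 61.0%, 59.3% and 63.2% in wild-type libraries. After exercise the share was 67.6%, 67.0% and 66.4% in HDAC3-KO libraries and 57.7%, 56.4% and 59.0% in wild-type libraries. The genotypes did not overlap in either condition. With 3 against 3 libraries an exact permutation test cannot give a two-sided p below 0.1, so no p is given for shares and ratios. The sum over the 27 members was 244, 253 and 257 FPKM in HDAC3-KO libraries at rest and 228, 228 and 245 FPKM in wild-type libraries, which overlapped.

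**Figure D2:**
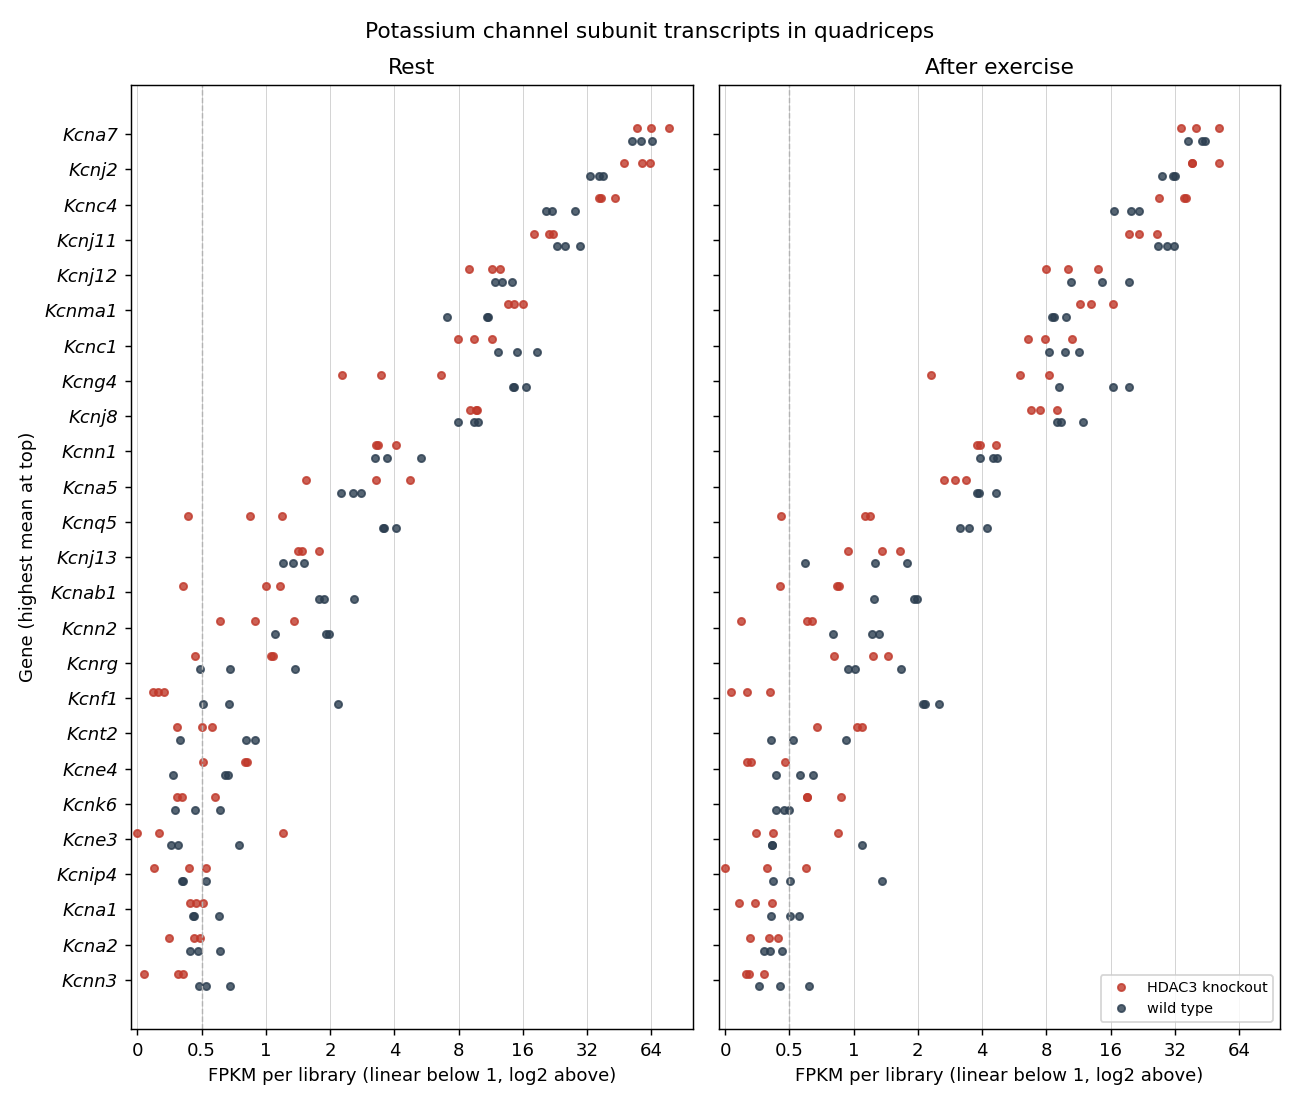
FPKM of 25 of the 27 members in each library, at rest (left) and after exercise (right), with HDAC3 knockout in red above wild type in dark blue for each gene. The axis is linear below 1 FPKM and log2 above, and the dashed line marks 0.5 FPKM. Kcna7 reaches 77.0 FPKM in an HDAC3-KO library at rest, and the lowest members sit around the line.

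Among voltage-gated subunits, Kcnq5 fell in both conditions. It forms slowly activating channels of the KCNQ type that dampen excitability in neurons and muscle. It measured 0.394, 0.875 and 1.19 FPKM in HDAC3-KO libraries at rest, against 3.58, 4.08 and 3.55 FPKM in wild-type libraries. After exercise Kcnq5 measured 1.13, 1.2 and 0.435 FPKM in HDAC3-KO libraries and 3.48, 3.14 and 4.24 FPKM in wild-type libraries. Every HDAC3-KO library lay below every wild-type library in both conditions. Kcnq5 fell at rest by 1.40 on the log2(FPKM + 1) scale (SE 0.19, limma adjusted p = 0.0186). Kcnq5 also fell after exercise, by 1.29 on that scale (SE 0.20, limma adjusted p = 0.0275). With a pseudocount of 0.1 FPKM the Kcnq5 differences were -2.16 at rest and -1.96 after exercise (limma adjusted p = 0.0261 and 0.0395), and the wild-type mean was 4.55 times the HDAC3-KO mean at rest and 3.93 times after exercise. The resting call was lost without wild-type library 2 (limma adjusted p = 0.0945), wild-type library 3 (0.0502) or HDAC3-KO library 2 (0.0516), and the call after exercise was lost without any 1 of the 6 libraries (0.062 to 0.091) or with no filter on low values (0.0561). A pseudogene, Gm7658, overlaps Kcnq5 in the reference gene table.

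Both silent modifier subunits among the members passed in 1 condition, Kcng4 at rest and Kcnf1 after exercise. Kcng4 and Kcnf1 encode subunits that carry no current alone and join pore subunits of the Kv2 family to change their gating. Kcng4 measured 2.28, 6.64 and 3.48 FPKM in HDAC3-KO libraries at rest, against 14.6, 16.5 and 14.4 FPKM in wild-type libraries. It fell at rest by 1.74 on the log2(FPKM + 1) scale (SE 0.28, limma adjusted p = 0.0251), a wild-type mean 3.67 times the HDAC3-KO mean. After exercise Kcng4 measured 2.31, 6.04 and 8.23 FPKM in HDAC3-KO libraries and 16.5, 19.6 and 9.22 FPKM in wild-type libraries. The genotypes did not overlap there, but the libraries of each spread widely and the difference did not pass (log2 difference -1.37, SE 0.40, limma adjusted p = 0.131; authors' deposited table q = 0.00132). The resting call held without HDAC3-KO library 2 (limma adjusted p = 0.0148) and was lost without any other library (0.0635 to 0.116). The non-coding genes Gm46055 and Gm46054 overlap Kcng4 in the reference gene table.

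Kcnf1 measured 0.347, 0.0489 and 0.17 FPKM in HDAC3-KO libraries after exercise, against 2.16, 2.52 and 2.12 FPKM in wild-type libraries. It fell after exercise by 1.46 on the log2(FPKM + 1) scale (SE 0.15, limma adjusted p = 0.00676), with means of 0.189 ± 0.15 FPKM in HDAC3-KO and 2.27 ± 0.217 FPKM in wild type. With a pseudocount of 0.1 FPKM the difference was -3.17 (limma adjusted p = 0.0195). The call held without each of the 6 libraries in turn (0.0246 to 0.04). At rest Kcnf1 measured 0.158, 0.125 and 0.206 FPKM in HDAC3-KO libraries and 2.19, 0.71 and 0.51 FPKM in wild-type libraries. The groups did not overlap at rest, wild-type library 1 stood above libraries 2 and 3, and the difference did not pass (limma adjusted p = 0.178). Kcnf1 counts as a member only through its wild-type level of 1.14 FPKM at rest and 2.27 FPKM after exercise.

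The Kcnf, Kcng, Kcns and Kcnv rows hold 10 silent subunits, and the 8 that are not members reached at most 0.383 FPKM (Kcnv2). That grouping was made after the values were seen.

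**Figure D3:**
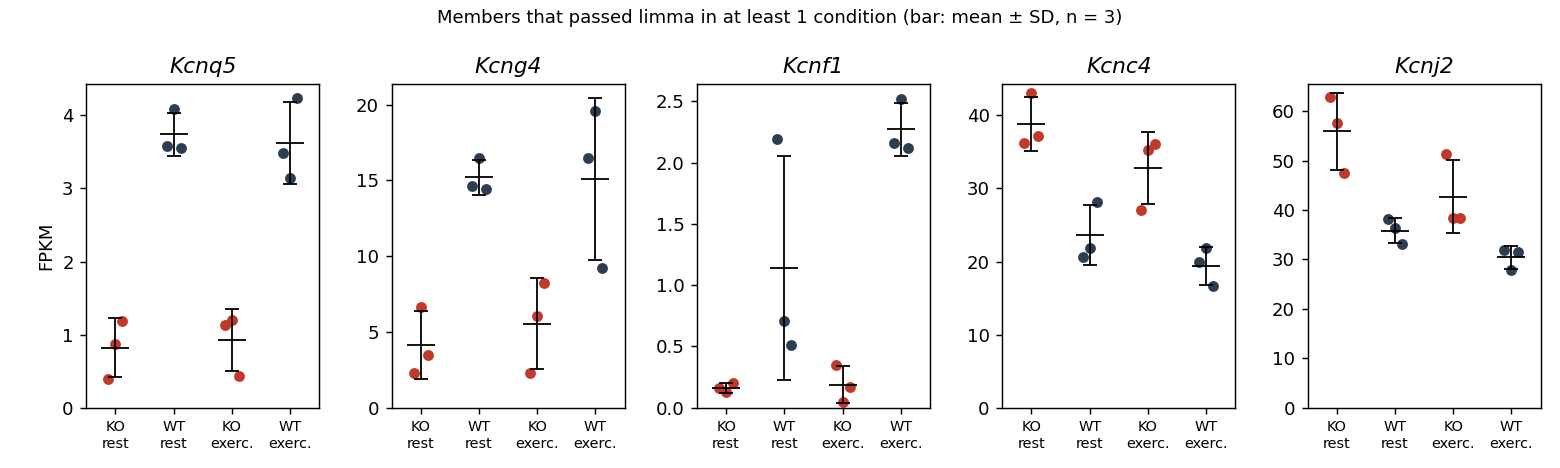
FPKM of the 5 members that passed limma in at least 1 condition, per library (points) with mean and SD over 3 libraries (bars), HDAC3-KO in red and wild type in dark blue. Kcnq5, Kcng4 and Kcnf1 sit lower and Kcnc4 and Kcnj2 sit higher in HDAC3-KO than in wild-type libraries, without overlap in either condition.

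Of the Kv3 family, Kcnc4 rose at rest. It encodes a fast-repolarizing voltage-gated subunit found in skeletal muscle. It measured 36.2, 43.0 and 37.1 FPKM in HDAC3-KO libraries at rest, against 20.6, 21.9 and 28.2 FPKM in wild-type libraries. Kcnc4 rose at rest by 0.70 on the log2(FPKM + 1) scale (SE 0.14, limma adjusted p = 0.0445). After exercise Kcnc4 measured 27.1, 35.3 and 36.0 FPKM in HDAC3-KO libraries and 19.9, 21.8 and 16.6 FPKM in wild-type libraries. The groups did not overlap and the difference was 0.72 (SE 0.15), but it missed the threshold (limma adjusted p = 0.0566). The resting call held without wild-type library 3 (limma adjusted p = 0.0439) and was lost without any other library (0.101 to 0.176). It was also lost with no filter on low values (limma adjusted p = 0.0674), with quantile normalization (0.0606) and with no mean-variance trend (0.0669).

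Kcnc1, a related fast subunit, did not pass limma. It measured 9.42, 7.97 and 11.5 FPKM in HDAC3-KO libraries at rest and 12.3, 15.0 and 18.6 FPKM in wild-type libraries, without overlap. The difference was -0.61 (SE 0.18, limma adjusted p = 0.129), and the authors' deposited table gave a q of 0.00119. After exercise Kcnc1 measured 10.6, 6.56 and 7.92 FPKM in HDAC3-KO libraries and 8.19, 9.83 and 11.4 FPKM in wild-type libraries, which overlapped. The ratio of Kcnc4 to Kcnc1 was 3.84, 5.4 and 3.22 in HDAC3-KO libraries at rest and 1.68, 1.46 and 1.52 in wild-type libraries. After exercise it was 2.57, 5.38 and 4.54 in HDAC3-KO libraries and 2.42, 2.22 and 1.46 in wild-type libraries. The ratios did not overlap between genotypes in either condition, and HDAC3-KO library 1 came closest to wild type after exercise. The pairs of genes set in a ratio were chosen after the values were seen, and the ratios are descriptions.

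Of the remaining voltage-gated members, Kcna5, a cardiac and vascular Shaker subunit, measured 3.19 ± 1.59 FPKM in HDAC3-KO and 2.54 ± 0.265 FPKM in wild type at rest. After exercise it measured 2.65, 3.37 and 3.0 FPKM in HDAC3-KO libraries and 3.78, 4.66 and 3.88 FPKM in wild-type libraries. Those groups did not overlap, and the difference did not pass limma (adjusted p = 0.255). Kcna1 and Kcna2, axonal Shaker subunits, stood just inside the 0.5 FPKM level. Kcna1 measured 0.412, 0.458 and 0.511 FPKM in HDAC3-KO libraries at rest and 0.435, 0.633 and 0.444 FPKM in wild-type libraries, with a wild-type mean of 0.504 FPKM. Kcna2 measured 0.444, 0.487 and 0.249 FPKM in HDAC3-KO libraries at rest and 0.643, 0.471 and 0.411 FPKM in wild-type libraries, with a wild-type mean of 0.508 FPKM. Both pairs of groups overlapped. Just outside it stood Kcnq1, at 0.432 FPKM, and Kcne1l, at 0.411 FPKM, both in wild type at rest.

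Of 5 inward rectifiers among the members, Kcnj2 was the 1 that passed limma. Kcnj2 encodes the main classical inward rectifier that stabilises the resting potential, and its mutation causes periodic paralysis in humans. It measured 62.9, 57.6 and 47.4 FPKM in HDAC3-KO libraries at rest, against 38.1, 36.4 and 33.1 FPKM in wild-type libraries. Kcnj2 rose at rest by 0.62 on the log2(FPKM + 1) scale (SE 0.13, limma adjusted p = 0.0466), and the call was lost without any 1 of the 6 libraries (0.079 to 0.165). It was also lost with no filter on low values (limma adjusted p = 0.0684), with quantile normalization (0.0698) and with no mean-variance trend (0.0739). After exercise Kcnj2 measured 51.3, 38.4 and 38.4 FPKM in HDAC3-KO libraries and 31.9, 27.8 and 31.5 FPKM in wild-type libraries. Every HDAC3-KO library was higher, and the difference of 0.47 (SE 0.14) did not pass (limma adjusted p = 0.147; authors' deposited table q = 0.0471).

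Kcnj12, the other classical inward rectifier, measured 8.91, 12.5 and 11.5 FPKM in HDAC3-KO libraries and 11.8, 12.8 and 14.2 FPKM in wild-type libraries at rest. After exercise it measured 7.99, 10.1 and 13.9 FPKM in HDAC3-KO libraries and 10.4, 19.6 and 14.6 FPKM in wild-type libraries. The genotypes overlapped in both conditions and the limma adjusted p was 0.447 at rest and 0.411 after exercise. The ratio of Kcnj2 to Kcnj12 was 7.06, 4.62 and 4.11 in HDAC3-KO libraries and 3.21, 2.84 and 2.33 in wild-type libraries at rest, without overlap. It was 6.41, 3.81 and 2.77 in HDAC3-KO libraries and 3.06, 1.42 and 2.16 in wild-type libraries after exercise, with overlap.

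**Figure D4:**
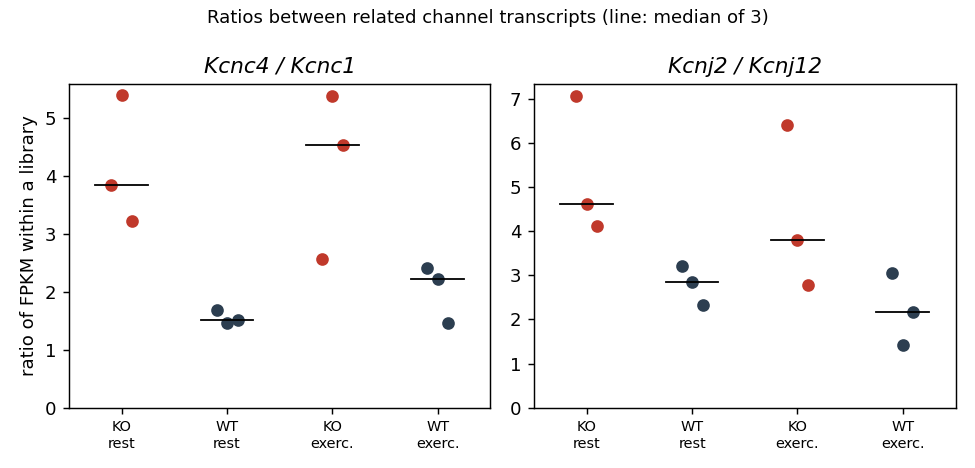
Ratio of FPKM between related transcripts within each library, with the median of 3 as a line, HDAC3-KO in red and wild type in dark blue. Kcnc4 over Kcnc1 is higher in every HDAC3-KO library than in every wild-type library of the same condition, and Kcnj2 over Kcnj12 is higher at rest and overlaps after exercise.

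ATP-sensitive channels pair a Kir6 pore with a sulfonylurea receptor and open when ATP falls. The pore gene Kcnj11 measured 18.0, 22.1 and 21.1 FPKM in HDAC3-KO libraries at rest, against 23.0, 25.1 and 29.5 FPKM in wild-type libraries. After exercise Kcnj11 measured 19.5, 21.8 and 26.4 FPKM in HDAC3-KO libraries and 29.4, 31.8 and 26.8 FPKM in wild-type libraries. No HDAC3-KO library reached the lowest wild-type library in either condition, yet the differences of -0.33 (SE 0.13) and -0.37 (SE 0.14) did not pass limma (adjusted p = 0.226 at rest and 0.219 after exercise). The second pore gene, Kcnj8, which is prominent in vascular mural cells, measured 9.02, 9.77 and 9.67 FPKM in HDAC3-KO libraries and 9.9, 9.49 and 7.96 FPKM in wild-type libraries at rest. After exercise Kcnj8 measured 9.02, 7.48 and 6.8 FPKM in HDAC3-KO libraries and 11.9, 8.94 and 9.39 FPKM in wild-type libraries, with overlap (limma adjusted p = 0.313). Kcnj13 averaged between 1.22 and 1.55 FPKM in the 4 groups. It overlaps the protein-coding gene Gigyf2 in the reference gene table. The strand is not stated, and whether reads of Kcnj13 and Gigyf2 can be told apart was not tested.

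Calcium-activated members were led by Kcnma1, the pore of the large-conductance channel that opens with calcium and voltage. It measured 13.6, 16.1 and 14.5 FPKM in HDAC3-KO libraries at rest, against 11.0, 10.9 and 7.03 FPKM in wild-type libraries. After exercise Kcnma1 measured 16.4, 12.9 and 11.5 FPKM in HDAC3-KO libraries and 9.86, 8.73 and 8.47 FPKM in wild-type libraries. All HDAC3-KO libraries were higher in both conditions. The differences of 0.59 (SE 0.17) and 0.53 (SE 0.15) did not pass limma (adjusted p = 0.129 at rest and 0.124 after exercise), and the authors' deposited table gave a q of 0.00213 and 0.00762. Small-conductance Kcnn1 averaged between 3.56 and 4.36 FPKM in the 4 groups, with overlap in both conditions. Kcnn2 averaged 0.972 ± 0.359 FPKM in HDAC3-KO and 1.66 ± 0.486 FPKM in wild type at rest, and 0.477 ± 0.308 FPKM in HDAC3-KO and 1.13 ± 0.253 FPKM in wild type after exercise (limma adjusted p = 0.311 and 0.215). Kcnn3, known for appearing in denervated fibres, reached 0.5 FPKM only in wild type at rest, where it averaged 0.581 ± 0.126 FPKM, beside 0.242 ± 0.166 FPKM in HDAC3-KO. The sodium-activated Kcnt2 averaged between 0.463 and 0.949 FPKM in the 4 groups.

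Auxiliary and tandem-pore members were low. Kcnab1, a cytoplasmic beta subunit of Shaker channels with an oxidoreductase fold, measured 1.0, 1.16 and 0.357 FPKM in HDAC3-KO libraries at rest, against 2.6, 1.88 and 1.77 FPKM in wild-type libraries. After exercise Kcnab1 measured 0.869, 0.424 and 0.886 FPKM in HDAC3-KO libraries and 1.92, 1.98 and 1.25 FPKM in wild-type libraries. The genotypes did not overlap in either condition, and the difference of -0.76 (SE 0.21) at rest and -0.66 (SE 0.18) after exercise did not pass limma (adjusted p = 0.11 and 0.122). The authors' deposited table called Kcnab1 at rest (q = 0.016) and did not test it after exercise. Kcnrg, which regulates channel assembly, averaged 0.865 FPKM in HDAC3-KO and 0.863 FPKM in wild type at rest. It overlaps Trim13 and Dleu2 in the reference gene table, and whether its reads can be told from theirs was not tested. Kcne3, Kcne4 and Kcnip4 had group means between 0.281 and 0.743 FPKM. Kcne3, an accessory subunit that binds Kcnc4 in skeletal muscle, is listed at 0 in HDAC3-KO library 3 at rest. Kcnip4 is listed at 0 in HDAC3-KO library 1 after exercise. Kcnk6, the only tandem-pore member, measured 0.637, 0.635 and 0.904 FPKM in HDAC3-KO libraries after exercise and 0.397, 0.501 and 0.456 FPKM in wild-type libraries. The difference of 0.25 (SE 0.14) did not pass limma (adjusted p = 0.419). At rest Kcnk6 averaged 0.421 FPKM in HDAC3-KO and 0.463 FPKM in wild type, with overlap. Kcnk6 reached the 0.5 FPKM level only in HDAC3-KO muscle after exercise.

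Counting non-overlap alone, the libraries of the genotypes separated for 9 of 21 tested members at rest and 11 of 23 after exercise, where 25.0% and 23.8% of all genes tested separated. Part of that count is set by the way members were chosen, and it is given as a description.

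The knockout differences at rest and after exercise were also compared directly, in a limma contrast over the 12 libraries. Of 20 members tested, 0 passed, beside 0 of all 11529 genes tested (0.0%). An unadjusted p under 0.05 was found for 0 of these members and for 574 of all genes tested (4.98%). Kcnj8 had the lowest unadjusted p among the members (0.0631, limma adjusted p = 0.922). The contrast for Kcnf1 was -0.67 (SE 0.33, limma adjusted p = 0.922), so a larger fall after exercise than at rest is not shown. For Kcnq5 it was 0.12 (SE 0.28) and for Kcnc4 0.02 (SE 0.21).

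Of 19 genes for proteins that join these channels, 12 were tested in each condition, and 0 rose and 2 fell in each, while 1.15% of all genes tested fell at rest and 1.31% after exercise. Amigo1, a membrane protein that accompanies Kv2 channels, measured 3.5, 3.98 and 3.11 FPKM in HDAC3-KO libraries at rest, against 5.77, 6.41 and 6.31 FPKM in wild-type libraries. Amigo1 fell at rest, with a difference of -0.66 (SE 0.12) and limma adjusted p = 0.037, and the call was lost without any 1 library (0.0669 to 0.163) or with no filter on low values (0.0638). After exercise Amigo1 measured 4.06, 2.85 and 2.92 FPKM in HDAC3-KO libraries and 5.24, 4.8 and 5.01 FPKM in wild-type libraries (limma adjusted p = 0.14).

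Abcc9, the sulfonylurea receptor that pairs with Kcnj11 and Kcnj8, measured 35.0, 36.6 and 31.1 FPKM in HDAC3-KO libraries after exercise, against 55.4, 53.8 and 61.7 FPKM in wild-type libraries. Abcc9 fell after exercise, with a difference of -0.72 (SE 0.11) and limma adjusted p = 0.0279, and the call was lost without any 1 library (0.0703 to 0.091). At rest Abcc9 measured 34.9, 44.4 and 38.6 FPKM in HDAC3-KO libraries and 62.3, 64.1 and 51.5 FPKM in wild-type libraries, a difference of -0.58 (SE 0.13) that missed the threshold (limma adjusted p = 0.0614). The other receptor, Abcc8, averaged 0.487 FPKM in HDAC3-KO and 0.263 FPKM in wild type at rest, with overlap. After exercise Abcc8 measured 0.744, 0.567 and 0.78 FPKM in HDAC3-KO libraries and 0.232, 0.284 and 0.14 FPKM in wild-type libraries. Those groups did not overlap and the direction was opposite to Abcc9, but Abcc8 was too low to be tested by limma.

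Calm3, a calmodulin gene whose protein gates small-conductance and KCNQ channels, measured 45.8, 54.3 and 49.3 FPKM in HDAC3-KO libraries at rest, against 94.6, 119 and 131 FPKM in wild-type libraries. Calm3 fell at rest by 1.18 on the log2 scale (SE 0.14, limma adjusted p = 0.0137) and by 1.37 after exercise (SE 0.18, limma adjusted p = 0.0153). The resting call was lost without wild-type library 2 (limma adjusted p = 0.088), HDAC3-KO library 1 (0.0622) or HDAC3-KO library 3 (0.0678). After exercise it held only without HDAC3-KO library 1 (limma adjusted p = 0.0262) or HDAC3-KO library 3 (0.0172). Calm2 encodes the same protein, and it averaged 179 FPKM in HDAC3-KO and 153 FPKM in wild type at rest (limma adjusted p = 0.333). After exercise Calm2 measured 55.1, 107 and 97.3 FPKM in HDAC3-KO libraries and 108, 116 and 108 FPKM in wild-type libraries (log2 difference -0.41, SE 0.23, limma adjusted p = 0.4).

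**Figure D5:**
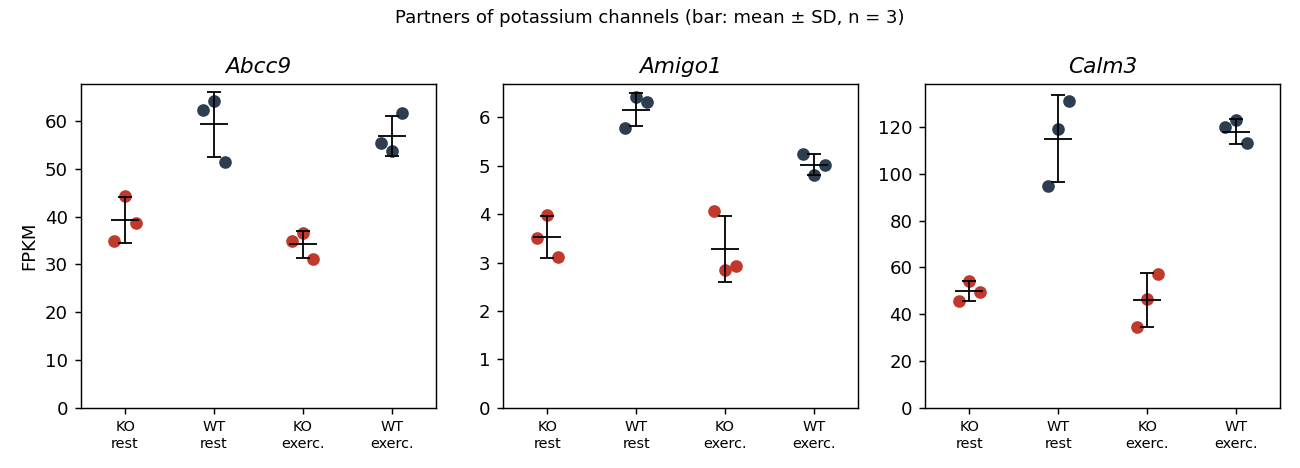
FPKM of the channel partners Abcc9, Amigo1 and Calm3 per library (points), with mean and SD over 3 libraries (bars), HDAC3-KO in red and wild type in dark blue. Every HDAC3-KO library lies below every wild-type library of the same condition for all 3 genes.

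Other genes of muscle excitability gave no limma call. Of 25 sodium, chloride and calcium channels, sodium pump subunits and related genes, 21 were tested at rest and 20 after exercise, and limma called 0 in each (4 and 6 at an unadjusted p under 0.05, which 18.7% of all genes tested had at rest and 17.7% after exercise). The authors' deposited table called 3 of 20 that it tested at rest and 3 of 19 after exercise. Of all genes it tested, it called 10.8% at rest and 9.57% after exercise. The chloride channel Clcn1 averaged 45.5 ± 7.89 FPKM in HDAC3-KO and 35.2 ± 2.0 FPKM in wild type at rest (limma adjusted p = 0.221).

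Some marker lists of fibre state and other cell types separated the genotypes too. At rest the summed level of 7 denervation and regeneration markers was 9.35 to 10.6 FPKM in HDAC3-KO and 5.77 to 7.07 FPKM in wild-type libraries. Myog (4.67 FPKM in HDAC3-KO and 1.87 FPKM in wild type) and Chrna1 (3.02 FPKM in HDAC3-KO and 1.83 FPKM in wild type) made up most of that sum, and Ncam1 had a lower mean in HDAC3-KO (0.764 FPKM) than in wild type (1.31 FPKM), as did Chrng and Myh3. Of the 4 markers of this list tested at rest, 0 passed limma. An unadjusted limma p under 0.05 was found for 3 of them and for 18.7% of all genes tested. The sums of this list overlapped after exercise. The authors' deposited table called 2 of 2 markers of this list that it tested at rest and 0 of 2 after exercise. Its share over all genes was 10.8% at rest and 9.57% after exercise. The other 8 marker sums besides the muscle list overlapped at rest. After exercise 8 fast-fibre markers summed to 50739 to 53125 FPKM in HDAC3-KO and 60132 to 64118 FPKM in wild-type libraries. Mean levels after exercise were lower in HDAC3-KO for Mylpf (10300 against 13400 FPKM), Tnnt3 (15500 against 19200 FPKM) and Tnni2 (8700 against 12500 FPKM). Myh4 averaged 8970 FPKM in HDAC3-KO and 9150 FPKM in wild type, and Actn3 and Myh2 also had lower means in HDAC3-KO. Myh1 (1810 against 1470 FPKM) and Atp2a1 (4550 against 4230 FPKM) had higher means in HDAC3-KO. Of the 8, 0 passed limma after exercise (3 at an unadjusted p under 0.05, which 17.7% of all genes tested had). The sum of 8 Schwann cell and nerve markers was 16.7 to 19.8 FPKM in HDAC3-KO and 21.5 to 24.2 FPKM in wild-type libraries. Pmp22 (10.4 against 13.7 FPKM) made up most of it. Mbp had a higher mean in HDAC3-KO (3.21 against 2.84 FPKM), and the other means were lower. The sum of 8 vascular smooth muscle and pericyte markers was 165 to 193 FPKM in HDAC3-KO and 225 to 241 FPKM in wild-type libraries. Rgs5 (134 against 179 FPKM) made up most of that sum, and all 8 means were lower in HDAC3-KO. Limma called 0 of 6 Schwann cell and nerve markers and 0 of 8 vascular markers that it tested after exercise. Of the markers it tested after exercise, the authors' deposited table called 0 of 8 fast-fibre, 0 of 3 Schwann cell and nerve and 0 of 7 vascular markers. The sum of 7 immune markers was 49.6 to 378 FPKM in HDAC3-KO and 31.8 to 39.7 FPKM in wild-type libraries after exercise. HDAC3-KO library 3 set the upper end, with S100a8 at 156 FPKM and S100a9 at 148 FPKM, and without it the HDAC3-KO sums were 49.6 and 67.9 FPKM. At rest wild-type library 2 had an immune sum of 522 FPKM, and the other wild-type libraries had 61.1 and 54.4 FPKM. The authors' deposited table called 2 of 5 immune markers that it tested at rest and 5 of 5 after exercise, against 10.8% and 9.57% of all genes. Among the markers Des rose in both conditions (limma adjusted p = 0.0338 at rest and 0.0456 after exercise) and the macrophage gene Cd68 rose after exercise (limma adjusted p = 0.0428). The Des call at rest held only without wild-type library 3 among the fits with 1 library left out (limma adjusted p = 0.0322, and 0.0858 to 0.154 in the others). The Des call after exercise (0.101 to 0.121) and the Cd68 call (0.0527 to 0.143) were lost without any 1 library. With no filter on low values all 3 were lost (limma adjusted p = 0.0632 for Des at rest, 0.0836 for Des after exercise and 0.0813 for Cd68), and the Des call after exercise was also lost with no mean-variance trend (0.0609). No marker on these lists was at 0 in all libraries. The part of fibre state and of other cells in the channel results was not tested.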

How the data were processed

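RNA-seq libraries of quadriceps (12, in 4 groups of 3) were analysed; the 4 GRO-seq libraries are not analysed here. The authors deposited FPKM in a table for rest and a table for exercise, each with 24354 rows, library columns, group means, p-values and q-values. These p-values and q-values come from the authors' Cuffdiff run. TopHat2, Bowtie, Cuffdiff, HOMER and mm9 are named in the submitters' processing notes; versions, annotation, strand and normalization settings are not given in the sources used here. Columns were matched to samples by genotype and replicate number, with the condition taken from the table's name.

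Exercise rows whose names had become dates (27) were left out. limma 3.58.1 in R 4.3.3 was run on log2(FPKM + 1) of rows with a mean of at least 0.5 FPKM over a table's 6 libraries, as two-sided tests with a trend of variance on level and Benjamini-Hochberg adjustment over all rows tested and a threshold of 0.05. The scale understates changes of low genes. Depth was unknown, so no counting error is given. The script was tested on simulated data. Members and lists were chosen with earlier results of these data known. Members given per library were those that passed limma, those called in the authors' deposited q-values, those at 5 FPKM or more in a group and the highest of each class; Kcna5 was added after its values were seen. Values of some members and listed genes are not reported here; counts, sums and medians include them. Alternatives were another pseudocount, filters, scalings, no trend, a fit over all 12 libraries, a replicate block, each library left out and the authors' q. Gene names and overlaps came from a RefSeq table of GRCm38.p6, which differs from mm9, so coordinates are given for the promoters of that table only.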

Additional observations from a re-analysis of the deposited data

How the results depend on the processing

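Read depth was unknown, and 3 libraries per group limit every call. No knockout difference that passed changed sign within its condition under any alternative; small uncalled differences of 8 members did in at least 1. Among members called in neither condition, 0 were called under any limma alternative. At rest 372 genes and 4 members passed; without a filter on low values the counts were 247 and 2, with quantile normalization and with no mean-variance trend 2 members passed, with all 12 libraries in one fit 624 genes passed, and the authors' q gave 998 genes and 7 members. Leaving out 1 library gave 19 (without wild-type library 2) to 209 genes and 0 to 1 members at rest. After exercise 276 genes and 2 members passed; without a filter the counts were 109 and 1, with all 12 libraries in one fit 581 genes and 3 members passed, and the authors' q gave 865 genes and 7 members. Leaving out 1 library gave 41 to 58 genes and 1 member after exercise, and 0 to 1 genes for the difference between the conditions. Kcnc4 passed after exercise in the fit of all 12 libraries (limma adjusted p = 0.0194) and when only rows the authors tested were used. Fits with fewer libraries have fewer degrees of freedom by construction; otherwise the cause was not tested. The replicate block, with the numbers of the labels, gave 35 genes and 0 members at rest and 110 genes and 1 member (Kcnf1) after exercise. Under it Calm3 passed in both conditions, and Amigo1 at rest (limma adjusted p = 0.0964), Abcc9 after exercise (0.0783) and Des at rest (0.06) and after exercise (0.115) did not. Same-numbered libraries had correlations of deviations between 0.0365 and 0.0482 at rest, where each library correlated best with its own number, and between -0.239 and 0.0229 after exercise, so the numbers were not taken as pairs. The difference between the conditions reversed for Kcnc4 from 0.02 to -0.01 with libraries at the same median and lay between -0.11 and 0.15 with 1 library left out; for Kcnq5 that range was -0.06 to 0.31. A threshold of 1 FPKM would give 19 members and one of 0.25 FPKM 35.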
